A study of Homo sapiens with 6 samples.

Results

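Small noncoding RNAs and the genes that carry snoRNAs in their introns were examined in DU145, a human prostate cancer cell line with epithelial character. The set held 65 of the 27381 genes in the deposited table, chosen because their symbols name a H/ACA or box C/D snoRNA (SNORA, SNORD), a scaRNA, a spliceosomal snRNA, a Y RNA, a vault RNA or a snoRNA host gene (SNHG, and GAS5), and because their FPKM was above 0 in at least 1 condition. Of these, 43 were small RNAs and 22 were host genes. FPKM is the number of sequenced fragments per length of transcript and per mapped fragments in the library.

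The labels give 6 libraries, 2 each from DU145 cells given a scrambled sgRNA (Scr), DU145 cells with CD24 knocked out (CD24 KO) and DU145 cells with RCC2 knocked out (RCC2 KO). All cells had received a plasmid with Cas9, GFP and sgRNAs, had been sorted for GFP and were grown as clones, the control with a scrambled sgRNA, and the sources used here do not give the clone behind each library. The table has 1 FPKM value per gene and condition, so no SD between libraries, p-value or other test could be computed, and differences between clones and differences between genotypes cannot be told apart. The name of the RCC2 KO column equals the label of the first RCC2 KO library, and whether the second library is part of it is not known. In bulk RNA, fewer cells with an RNA and less of it per cell cannot be told apart. The libraries labelled CD24 KO had 309 FPKM of CD24 RNA against 93.2 FPKM in Scr, and those labelled RCC2 KO had 41.8 FPKM of RCC2 RNA against 37.8 FPKM in Scr. Under the other label, RCC2 RNA was at 14.2 FPKM (CD24 KO) and CD24 RNA at 214 FPKM (RCC2 KO). Neither targeted RNA was lower under its own label, and CD24 KO and RCC2 KO stand throughout for the libraries labelled so, with directions that rest on those labels. The epithelial markers KRT8, KRT18, EPCAM and CDH1 were between 23.7 and 348 FPKM in every column, whereas the prostate secretory gene KLK3 and the leukocyte marker PTPRC were listed at 0 in all 3.

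H/ACA snoRNAs guide pseudouridylation and box C/D snoRNAs guide 2′-O-methylation, mainly of ribosomal RNA, and scaRNAs guide the same modifications on spliceosomal snRNAs in Cajal bodies. In human cells most of them are cut out of introns of other genes and trimmed to their ends by exonucleases while core proteins protect them, so the mature RNA has no poly(A) tail. Vault RNAs and the minor spliceosomal U6atac snRNA (RNU6ATAC) have their own RNA polymerase III promoters. SNHG genes and GAS5 are spliced and polyadenylated RNAs known chiefly as carriers of intronic snoRNAs, and several of them start with a pyrimidine-rich tract like that of ribosomal protein genes. By the labels, total RNA entered a TruSeq library kit, and the methods of the paper name an mRNA kit of the same make.

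The sequences of the small RNAs on which the results turn are given from GENCODE 29, 5′ to 3′. The first 3 are H/ACA snoRNAs that lie within TAF1D (SNORA40, SNORA8) and CWF19L1 (SNORA12) and were above 0 in every column. Capitals mark the H box (letters ANANNA) between the hairpins and, where it stands 3 bases before the end, the ACA box.
SNORA40: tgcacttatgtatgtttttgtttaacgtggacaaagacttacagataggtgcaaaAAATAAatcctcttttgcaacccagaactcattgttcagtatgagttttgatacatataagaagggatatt
SNORA8: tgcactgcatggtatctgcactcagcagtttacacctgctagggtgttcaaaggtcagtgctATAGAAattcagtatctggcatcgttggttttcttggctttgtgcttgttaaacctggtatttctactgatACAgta
SNORA12: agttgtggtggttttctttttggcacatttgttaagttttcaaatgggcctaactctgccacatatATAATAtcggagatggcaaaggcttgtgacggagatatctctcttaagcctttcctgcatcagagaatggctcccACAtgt

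SNORA73B and SNORD17 are shown as the longest H/ACA and box C/D snoRNAs with a value in every column. In SNORD17 the capitals mark a C box (TGATGA) and a D box (CTGA).
SNORA73B: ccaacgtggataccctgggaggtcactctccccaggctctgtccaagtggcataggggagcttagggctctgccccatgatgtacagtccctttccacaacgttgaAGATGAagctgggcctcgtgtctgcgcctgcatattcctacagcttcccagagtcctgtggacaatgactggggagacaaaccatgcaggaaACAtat
SNORD17: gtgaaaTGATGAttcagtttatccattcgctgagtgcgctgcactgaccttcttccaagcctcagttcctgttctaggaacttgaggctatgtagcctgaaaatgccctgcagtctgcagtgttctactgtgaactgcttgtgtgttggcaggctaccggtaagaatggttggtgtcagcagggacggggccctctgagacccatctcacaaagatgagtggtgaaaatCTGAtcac

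SNORA22 and SNORA67 are shown because their values were listed in Scr alone, and SNORA22C and SNORA19 because theirs were listed in CD24 KO alone. SNORA22 and SNORA22C were identical at 98.5% of aligned positions.
SNORA22: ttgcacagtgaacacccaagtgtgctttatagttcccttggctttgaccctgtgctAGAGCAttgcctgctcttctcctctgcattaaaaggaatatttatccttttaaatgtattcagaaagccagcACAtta
SNORA22C: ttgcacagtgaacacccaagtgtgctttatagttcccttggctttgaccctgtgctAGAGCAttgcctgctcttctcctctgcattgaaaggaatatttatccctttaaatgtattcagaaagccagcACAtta
SNORA67: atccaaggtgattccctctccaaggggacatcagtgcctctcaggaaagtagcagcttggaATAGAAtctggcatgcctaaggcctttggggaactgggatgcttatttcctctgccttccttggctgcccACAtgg
SNORA19: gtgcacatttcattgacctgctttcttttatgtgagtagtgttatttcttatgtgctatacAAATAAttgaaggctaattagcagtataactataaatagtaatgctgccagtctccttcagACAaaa

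The vault RNA VTRNA1-3 and the snRNA RNU6ATAC had the largest values of any small RNA that was listed at 0 in Scr. Capitals mark the B box of the internal promoter (letters GTTCGANNC) in VTRNA1-3 and the final run of 6 T in RNU6ATAC.
VTRNA1-3: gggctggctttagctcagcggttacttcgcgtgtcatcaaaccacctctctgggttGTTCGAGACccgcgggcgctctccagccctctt
RNU6ATAC: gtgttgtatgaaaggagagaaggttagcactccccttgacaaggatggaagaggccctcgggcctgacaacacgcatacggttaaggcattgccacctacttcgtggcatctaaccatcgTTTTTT

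Sequence motifs of the classes were found in RNAs with and without values. The ACA box stood exactly 3 bases before the end in 15 of 22 H/ACA snoRNAs above 0 (68.2%) and in 91 of 126 listed at 0 in every column (72.2%). The H box letters were found in the middle of 134 of 148 H/ACA snoRNAs (90.5%). Both TGATGA and CTGA were found in SNORD17 and in 195 of 262 box C/D snoRNAs that were listed at 0 throughout (74.4%). The B box letters were found in all 4 vault RNAs of the table, and 2 of its 8 snRNAs ended in at least 4 T. These are letter matches on the strand of the RNA and are a description only.

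Most small RNAs had no value. Of the 558 small RNAs in the table, 515 were listed at 0 in all 3 columns, 11 were above 0 in all 3 columns and 32 were above 0 in some of them. By class, 25 of 181 H/ACA snoRNAs, 2 of 335 box C/D snoRNAs, 14 of 28 scaRNAs, 1 of 8 snRNAs, 1 of 4 vault RNAs and neither of the 2 Y RNAs were above 0 in any column. The search for 7S RNAs took only RN7S followed by a digit, which cannot match symbols such as RN7SK, so 7S RNAs were not examined. The number above 0 was 22 in Scr, 28 in CD24 KO and 22 in RCC2 KO. Host genes were unlike the small RNAs in this respect: 22 of 23 were above 0 in some column and 20 of 23 in all 3, with SNHG18 listed at 0 throughout. The members nearest to the threshold of the choice were SCARNA17, at 0.286 FPKM in RCC2 KO alone, and SNHG22, at 0.0335 FPKM in CD24 KO and at 0.0813 in RCC2 KO.

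The length of the RNA went with whether it had a value. A length was found for 455 of the 558 small RNAs (81.5%). Of 248 RNAs shorter than 100 nucleotides, only VTRNA1-3 was above 0 in any column (0.403%). In the class from 100 to under 160 nucleotides 22 of 183 were above 0 (12.0%), in the class from 160 to under 200 nucleotides 3 of 7 (42.9%), and among RNAs of 200 nucleotides or more 10 of 17 (58.8%). The median length was 81 nucleotides for box C/D snoRNAs, 133 for H/ACA snoRNAs and 143 for scaRNAs. Since the first class is mostly box C/D, the part of class and of length in these shares cannot be told apart here.

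Among RNAs above 0, the shorter ones had the higher FPKM. In Scr, the median was 230 FPKM for RNAs of 100 to under 160 nucleotides and 4.37 FPKM for RNAs of 200 nucleotides or more. The same medians were 255 and 1.98 FPKM in CD24 KO, and 84.5 and 1.45 FPKM in RCC2 KO. Across RNAs above 0, Spearman's rho of length and FPKM was -0.92 in Scr (19 RNAs), -0.94 in CD24 KO (24 RNAs) and -0.82 in RCC2 KO (21 RNAs), as a description, since all points of a column share libraries and FPKM itself divides by length. Among 20 RNAs from 120 to under 150 nucleotides, 30 of 60 values were listed at 0, and the lowest values above 0 were 0.286, 5.68, 28.6 and 31.9 FPKM, while the highest was 1583 FPKM. In this length range all but 2 of the values above 0 were thus at least 28.6 FPKM. A 0 is given here as a listing and not as absence of the RNA, because the depth of the libraries is unknown.

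**Figure D1:**
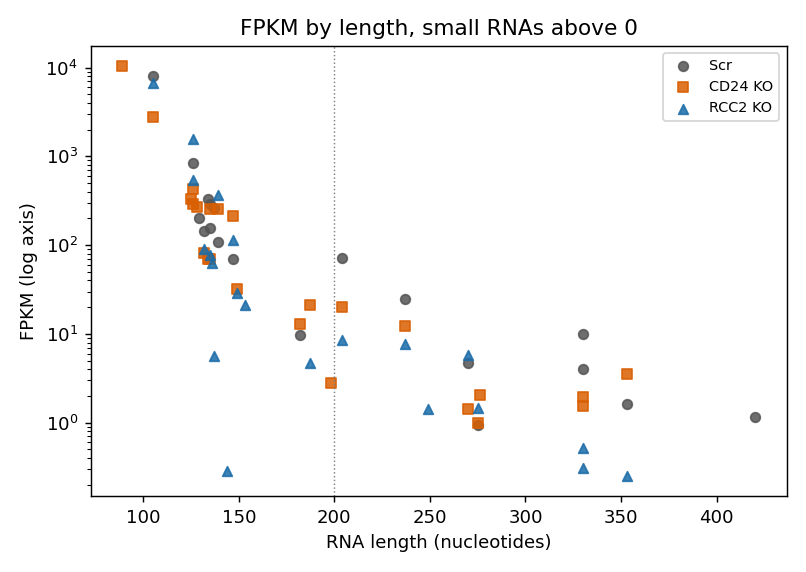
FPKM (log axis) against RNA length in nucleotides for the small RNAs with a known length and a value above 0, with circles for Scr, squares for CD24 KO and triangles for RCC2 KO; the dotted line stands at 200 nucleotides. Values descend from VTRNA1-3 at 10295 FPKM among the shortest RNAs to values of 0.253 to 71.5 FPKM among RNAs of 200 nucleotides or more.

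Listing at 0 in some but not all columns was more common among small RNAs than among host genes and over all genes, while other short RNA genes shared it in part. Of 41 small RNAs with at least 1 FPKM in a column, 30 were listed at 0 in another (73.2%), against 1 of 21 host genes (4.76%) and 85 of all 12822 genes with at least 1 FPKM in a column (0.663%). The share over all genes depended on that minimum. Among genes above 0 in any column it was 2591 of 18634 (13.9%), against 32 of 43 small RNAs (74.4%) and 2 of 22 host genes (9.09%). With the minimum of 1 FPKM, the share was 4 of 16 for microRNA genes (25.0%) and 2 of 4 for the few other genes with a locus of at most 300 bases. At a minimum of 10 FPKM, the microRNA genes were nearer to the small RNAs, with 4 of 6 (66.7%) against 23 of 29 (79.3%). By column, 20 of the 41 small RNAs were listed at 0 in Scr, 13 in CD24 KO and 20 in RCC2 KO.

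The 11 small RNAs with a value in every column were led by SNORD141A, a box C/D snoRNA with a locus of its own in the table (chr5:14652387-14652491, read as hg19). SNORD141A was at 8025 FPKM in Scr, at 2775 in CD24 KO and at 6644 in RCC2 KO, and in Scr it made up 1.78% of the sum of all FPKM. SNORA40 was at 842 FPKM in Scr, at 432 in CD24 KO and at 535 in RCC2 KO. Both were lowest in CD24 KO and highest in Scr.

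SNORA8 and SNORA12 were instead lowest in Scr. SNORA8 was at 108 FPKM in Scr, at 253 in CD24 KO and at 363 in RCC2 KO. SNORA12 was at 70.4 FPKM in Scr, at 213 in CD24 KO and at 115 in RCC2 KO. SNORA8 and SNORA40 come from the same gene, TAF1D, so the direction against Scr differed within 1 containing gene.

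Of the 7 RNAs of 200 nucleotides or more, 4 had their highest value in Scr and their lowest in RCC2 KO. SNORA73B (also known as U17b), which acts in ribosomal RNA cleavage and not as a modification guide, was at 71.5 FPKM in Scr, at 20.01 in CD24 KO and at 8.52 in RCC2 KO. SNORD17 was at 24.7 FPKM in Scr, at 12.4 in CD24 KO and at 7.61 in RCC2 KO. The scaRNA SCARNA7 was at 9.98 FPKM in Scr, at 1.93 in CD24 KO and at 0.308 in RCC2 KO. SCARNA10 had the same order, at 3.99, 1.56 and 0.519 FPKM in Scr, CD24 KO and RCC2 KO. Other scaRNAs of this length did not follow it. SCARNA12 was lowest in CD24 KO, at 4.76, 1.44 and 5.83 FPKM in the same order of conditions. SCARNA9 was highest in CD24 KO, at 1.63, 3.51 and 0.253 FPKM. SCARNA13 stood within 0.946 and 1.48 FPKM in all 3 conditions.

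The remaining 32 small RNAs were above 0 in only some columns. In CD24 KO alone 10 were above 0. The highest of them was VTRNA1-3, a component RNA of the vault particle, at 10295 FPKM, which was 2.65% of the sum of that column. It was followed by SCARNA22 at 330.2 FPKM, SNORA19 at 267 FPKM and SCARNA27 at 134 FPKM, and the other 6 were at 2.03 to 70.6 FPKM.

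In RCC2 KO alone 8 were above 0, at 0.286 to 90.9 FPKM. SNORA18 and SNORA101B led this group with the same value to every printed digit, 90.9284 FPKM, although they lie on chromosomes 11 and 14. SNORA16A followed at 78.1 FPKM and SNORA49 at 62.7 FPKM. In Scr alone 7 were above 0, led by SNORA22 at 331 FPKM, SNORA14B at 292 FPKM, SNORA67 at 259 FPKM and SNORA63C at 200.2 FPKM, and the other 3 were at 0.897 to 8.16 FPKM.

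Small RNAs with values in exactly 2 columns numbered 7. RNU6ATAC, which pairs in the minor spliceosome with U4atac and catalyses removal of rare introns, was at 292 FPKM in CD24 KO and at 1583 in RCC2 KO. SNORA57 was at 31.9 and 28.6 FPKM and SCARNA16 at 21.3 and 4.76 FPKM in the same 2 columns. The other 4 were above 0 in Scr and CD24 KO. SNORA2A was at 154 and 257 FPKM, SNORA63 at 146 and 81.7 FPKM, SNORA23 at 9.73 and 12.9 FPKM, and SNORA92 at 2.13 and 2.40 FPKM in those columns. No small RNA was above 0 in Scr and RCC2 KO while listed at 0 in CD24 KO.

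**Figure D2:**
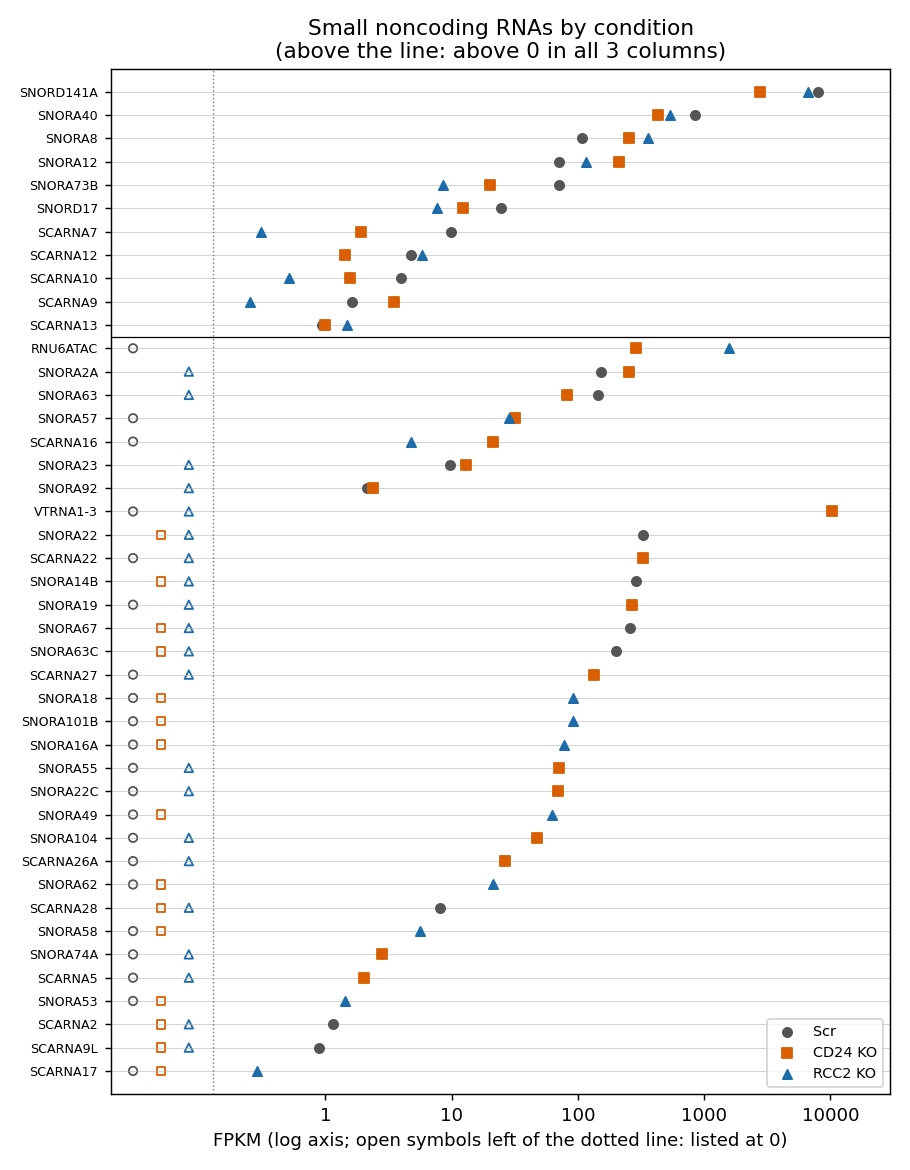
FPKM (log axis) of each of the 43 small RNAs in Scr (circles), CD24 KO (squares) and RCC2 KO (triangles), with open symbols left of the dotted line for columns in which the RNA was listed at 0. Above the horizontal line are the 11 RNAs with a value in every column, and below it the 32 with a value in 1 or 2 columns, among which VTRNA1-3 at 10295 FPKM in CD24 KO stands furthest to the right.

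Several of these RNAs have near copies elsewhere in the genome, and fragments may have been divided between them. By symbol, 15 of the 43 had at least 1 other copy in the table. Among them was SNORD141A, whose copy SNORD141B was listed at 0 in every column, with no identity computed. VTRNA1-3 was not counted among the 15, and the other 3 vault RNAs were listed at 0 throughout. SNORA22, listed in Scr alone at 331 FPKM, and SNORA22C, listed in CD24 KO alone at 69.2 FPKM, were the pair that is 98.5% identical. SNORA63 and SNORA63C, which was listed in Scr alone, were identical at 90.9% of aligned positions. SNORA40 was 96.9% identical to SNORA40B and 92.2% identical to SNORA40C, both listed at 0 in every column. Which copy a value belongs to is uncertain for such RNAs.

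Differences between conditions were taken on the scale of log2(FPKM + 1), which understates differences of low values, over members with at least 1 FPKM in a column and a value above 0 in both columns compared. Between CD24 KO and Scr, 15 small RNAs could be compared, and their median difference was -0.83, with 7 higher and 8 lower in CD24 KO (47% and 53% of all genes). Of these, 2 were at least 2-fold higher (SNORA12 by 1.59 and SNORA8 by 1.22 on the log2 scale) and 4 at least 2-fold lower, SCARNA7 (-1.90), SNORA73B (-1.79), SNORD141A (-1.53) and SCARNA12 (-1.24). Over all genes compared in the same way the median was -0.03, and 2.5% were at least 2-fold higher and 2.88% at least 2-fold lower. A further 13 small RNAs went from a listed 0 in Scr to a value in CD24 KO, and 6 from a value to a listed 0, against 0.211% and 0.172% of all genes. The values behind the comparisons are the ones that also chose the members, so these counts describe the members and are not a test.

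Between RCC2 KO and Scr, 11 small RNAs could be compared, with a median difference of -0.65 and 4 higher and 7 lower in RCC2 KO (49.4% and 50.6% of all genes). SNORA8 was at least 2-fold higher (1.73), and 5 were at least 2-fold lower, SCARNA7 (-3.07), SNORA73B (-2.93), SCARNA10 (-1.72), SNORD17 (-1.58) and SCARNA9 (-1.07). SCARNA7, SCARNA10 and SCARNA9 were under 1 FPKM in RCC2 KO. When at least 1 FPKM was required in every column, 7 RNAs were left, with a median of -0.27 and 2 at least 2-fold lower. Over all genes, 0.251% were at least 2-fold higher and 0.612% at least 2-fold lower (0.863% together), and the median was -0.0036. From Scr to RCC2 KO, 10 small RNAs went from a listed 0 to a value and 10 from a value to a listed 0, against 0.195% and 0.273% of all genes. The Scr values are shared with the comparison of CD24 KO.

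Between RCC2 KO and CD24 KO directly, 14 small RNAs could be compared, with a median of -0.40 and 6 higher and 8 lower in RCC2 KO (51.7% and 48.3% of all genes). Of them 3 were at least 2-fold higher and 4 at least 2-fold lower, against 3.9% and 4.06% of all genes (7.96% together). The median turned to 0.31 when at least 1 FPKM was required in every column. From CD24 KO to RCC2 KO, 7 went from a listed 0 to a value and 14 from a value to a listed 0, against 0.179% and 0.296% of all genes.

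Longer and shorter RNAs were described apart, with the limit of 200 nucleotides chosen on these values and the difference not tested. Of the 7 small RNAs of 200 nucleotides or more with a value in every column, 5 were lower in CD24 KO than in Scr (median -0.96), against 53% of all genes. Likewise 5 were lower in RCC2 KO than in Scr (median -1.58), against 50.6% of all genes. For RNAs under 200 nucleotides the directions were mixed, with 4 higher and 3 lower in CD24 KO (median 0.38) and 2 higher and 2 lower in RCC2 KO (median 0.21), both against Scr. Structural RNAs that are not members are given beside this. RMRP, the RNA of RNase MRP, was at 1256 FPKM in Scr, at 79.6 in CD24 KO and at 89.0 in RCC2 KO. RPPH1, the RNA of RNase P, was at 165, 40.3 and 15.1 FPKM in the same order. TERC, the telomerase RNA, was under 1 FPKM in each column, at 0.727, 0.190 and 0.419 FPKM. The mitochondrial ribosomal RNAs differed less where they had values, with RNR1 at 4687, 3948 and 2615 FPKM and RNR2 at 26884 FPKM in Scr and 22704 FPKM in RCC2 KO but listed at 0 in CD24 KO. Histone genes, whose major mRNAs have no poly(A) tail either, had a median difference from Scr of -0.73 in CD24 KO (23 of 30 lower, against 53% of all genes) and -1.08 in RCC2 KO (32 of 32 lower, against 50.6% of all genes). The part of RNA selection during library preparation in these differences was not tested.

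**Figure D3:**
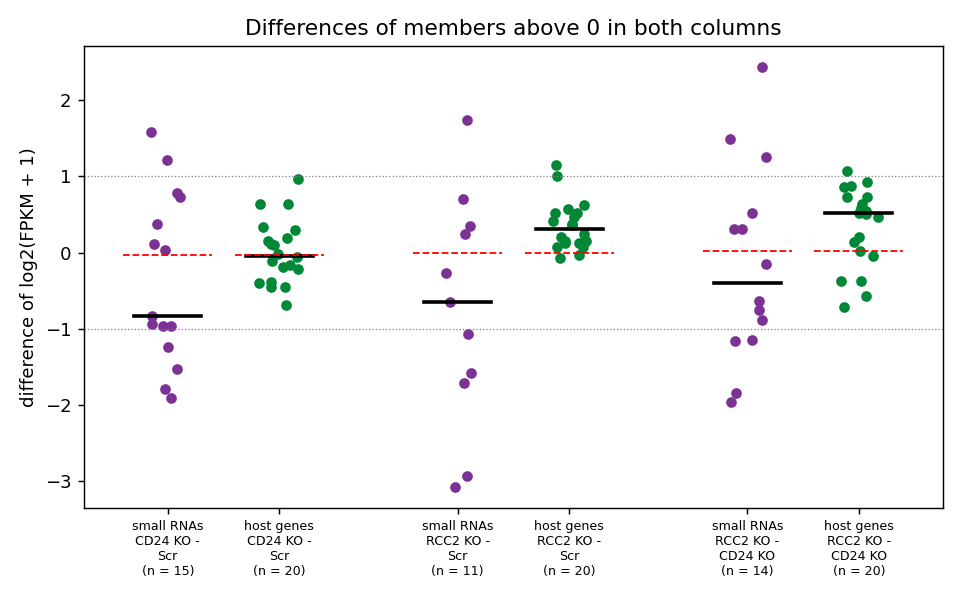
Differences of log2(FPKM + 1) for members above 0 in both columns compared, small RNAs in purple and host genes in green; black bars are the medians of the members, red dashed lines the medians of all genes compared, and dotted lines mark a 2-fold difference. Small RNAs spread from -3.07 to 2.44, whereas host genes stay between -0.72 and 1.15.

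Host genes had values in nearly every column, and the highest value was most often in RCC2 KO. The highest of the 20 hosts above 0 in all columns was SNHG6, at 478 FPKM in Scr, at 606 in CD24 KO and at 469 in RCC2 KO. SNHG5 was at 195, 209 and 212 FPKM in Scr, CD24 KO and RCC2 KO, and these values lay close together. GAS5, known for its accumulation in growth-arrested cells and as host to many box C/D snoRNAs, was at 92.1 FPKM in Scr, at 180.3 in CD24 KO and at 109 in RCC2 KO.

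CD24 KO was also highest for SNHG3, at 24.9, 39.2 and 26.1 FPKM in Scr, CD24 KO and RCC2 KO. SNHG19 was at 37.4, 46.3 and 35.7 FPKM in the same order. SNHG11 was at 2.47, 2.98 and 2.86 FPKM, with both knockout columns close. These, with SNHG6 and GAS5, were the 5 hosts with their highest value in CD24 KO.

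For the other 15 hosts the highest value was in RCC2 KO. SNHG1, host to 8 small RNAs of the table, was at 130 FPKM in Scr, at 94.7 in CD24 KO and at 174 in RCC2 KO. SNHG7 was at 47.3, 28.9 and 61.6 FPKM in the same order, and SNHG15 at 43.2, 36.9 and 62.2 FPKM. SNHG16 was at 51.3, 38.9 and 59.1 FPKM. In each of these 4 CD24 KO was the lowest column.

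SNHG9 and SNHG4 differed from Scr the most in RCC2 KO. SNHG9 was at 32.8, 36.4 and 67.1 FPKM in Scr, CD24 KO and RCC2 KO, and SNHG4 at 5.16, 8.60 and 12.7 FPKM. SNHG17 was at 7.45, 6.84 and 12.0 FPKM, and SNHG12 at 3.62, 3.98 and 5.88 FPKM. SNHG8 was at 40.5, 38.8 and 45.0 FPKM. RCC2 KO was the highest column for all 5.

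The remaining 5 hosts with values in every column had RCC2 KO highest and CD24 KO lowest. SNHG14, the long host of the SNORD115 and SNORD116 clusters, was at 1.49, 0.892 and 2.58 FPKM in Scr, CD24 KO and RCC2 KO. SNHG26 was at 0.787, 0.591 and 1.47 FPKM, SNHG20 at 2.12, 1.74 and 3.01 FPKM and SNHG10 at 3.14, 2.04 and 3.35 FPKM. SNHG21 differed less, at 4.07, 3.99 and 4.52 FPKM. SNHG25 behaved like a small RNA, listed at 0 in Scr and CD24 KO and at 1384 FPKM in RCC2 KO. Its locus (chr17:62223330-62223669, read as hg19) is the shortest of the host loci.

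**Figure D4:**
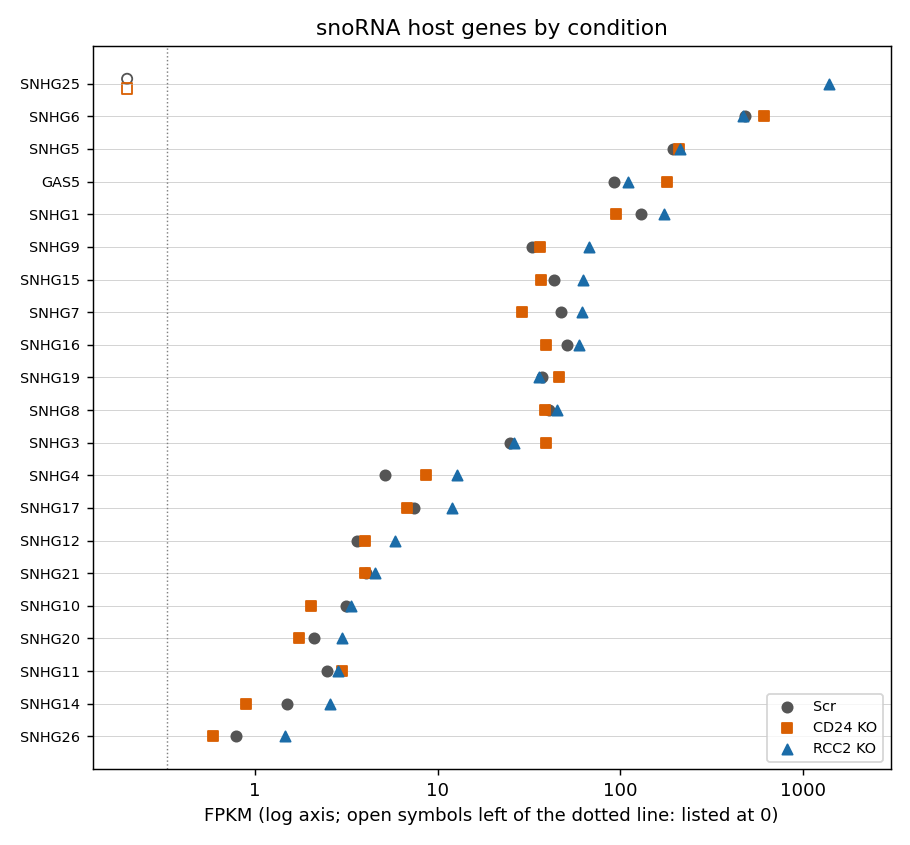
FPKM (log axis) of the 21 host genes with at least 1 FPKM in a column, with circles for Scr, squares for CD24 KO and triangles for RCC2 KO, and open symbols left of the dotted line for a listed 0. In 15 of the 20 hosts above 0 in every column the triangle stands furthest right, and SNHG25 has a value in RCC2 KO alone (1384 FPKM).

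Between CD24 KO and Scr, the 20 hosts had a median log2 difference of -0.04 with 9 higher and 11 lower, from -0.69 (SNHG7) to 0.96 (GAS5), and none was 2-fold changed, against 5.38% of all genes. Between RCC2 KO and Scr the median was 0.30, with 18 higher and 2 lower (SNHG19 and SNHG6), against 49.4% of all genes higher by any amount. SNHG4 (1.15) and SNHG9 (1.01) were at least 2-fold higher, against 0.251% of all genes, and no host was 2-fold lower. Neither passed 2-fold with a pseudocount of 5, and only 1 host did after quantile normalization. Between RCC2 KO and CD24 KO the median was 0.52, with 15 higher and 5 lower, against 51.7% of all genes higher. On the scale of log2(FPKM + 1) only SNHG7 was at least 2-fold higher (1.07). The plain FPKM ratio was 2.13 for SNHG7, and it was also above 2 for the low hosts SNHG14 (2.90) and SNHG26 (2.48). Of the 20 hosts, RCC2 KO was highest for 15, CD24 KO for 5 and Scr for 0, whereas over 12737 genes the shares were 34.4%, 39.6% and 25.9%. CD24 KO was lowest for 11 hosts, Scr for 7 and RCC2 KO for 2, against 44.5%, 22.3% and 33.3% of all genes. As the hosts were chosen by symbol and by having a value, and as there is 1 value per condition, these counts have no measure of their error.

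The start of the host genes was examined after most of them had been seen to be higher in RCC2 KO than in Scr. RefSeq promoters (GRCh38.p14) were matched for 18 of the 22 hosts. A run of at least 4 C or T that begins with C exactly at the annotated start, on the strand of the gene, was found in 6 of 18 hosts (33.3%) and in 1489 of 27305 genes (5.45%). The 6 were SNHG12, SNHG4, SNHG5, SNHG26, SNHG7 and SNHG19. RCC2 KO was the highest column for the first 5, against 15 of the 20 hosts above 0 in all columns, and CD24 KO for SNHG19. RCC2 KO was also highest for hosts without such a run, such as SNHG17 and SNHG1, whose run of 3 was under the minimum. GAS5 had a run of 0. Another start position could change these counts, and a link between the run and the direction was not tested. The starts of 3 hosts are shown, from 30 bases before the annotated start to 20 bases from it on, with the run in capitals.
SNHG12 (chr1:28581854-28581903, strand minus): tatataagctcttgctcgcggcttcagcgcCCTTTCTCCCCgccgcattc
SNHG4 (chr5:139274071-139274120, strand plus): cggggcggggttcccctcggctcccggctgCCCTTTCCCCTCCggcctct
SNHG7 (chr9:136728165-136728214, strand minus): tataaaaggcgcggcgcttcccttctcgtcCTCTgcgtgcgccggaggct

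Few small RNAs in host loci had a value, as was the case for small RNAs in general. The deposited table gives 129 of its small RNAs the same locus as one of the 22 hosts. Of these, 6 were above 0 in a column, against 43 of 558 small RNAs in the table (7.71%). Of 50 small RNAs outside SNHG14, 44 were thus listed at 0 throughout, including all 11 in GAS5 and all 8 in SNHG1, and so were all 79 in SNHG14. The 6 with a value were SNORA73B in SNHG3, SCARNA13 in SNHG10, SNORA16A in SNHG12, SCARNA16 in SNHG20, SCARNA17 in SNHG22 and SNORA74A in SNHG4. SNORA73B went from 71.5 FPKM in Scr to 20.01 FPKM in CD24 KO while SNHG3 went from 24.9 to 39.2 FPKM, and RCC1, which shares that locus, went from 40.3 to 18.5 FPKM. SNORA74A was at 2.81 FPKM in CD24 KO alone, whereas SNHG4 was above 0 in every column.

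Most of the 43 small RNAs sit in genes other than SNHG hosts. GENCODE 29 held 35 of them, of which 20 lay in introns only, 13 overlapped an annotated exon, and RNU6ATAC and VTRNA1-3 had no containing gene on their strand. TAF1D, which contains SNORA40, SNORA8 and SNORA18, was at 75.4 FPKM in Scr, at 71.9 in CD24 KO and at 74.2 in RCC2 KO, nearly level, whereas SNORA8 was 1.22 and 1.73 above Scr on the log2 scale and SNORA18 was listed in RCC2 KO alone. SNX5, which contains SNORD17, was level too, at 25.1, 22.7 and 25.0 FPKM. CWF19L1, the gene of SNORA12, was at 15.7, 15.6 and 19.97 FPKM. KPNA4, the gene of SCARNA7, was at 27.8, 24.02 and 30.7 FPKM, while SCARNA7 descended from 9.98 to 0.308 FPKM.

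Over the 13 pairs of small RNA and containing gene that could be compared between CD24 KO and Scr, 8 differed in the same direction, and the median size of the difference was 0.96 for the small RNAs and 0.32 for the containing genes. Between RCC2 KO and Scr, 5 of 10 pairs differed in the same direction, with median sizes of 1.32 and 0.07. Between RCC2 KO and CD24 KO, 5 of 11 did, with 0.88 and 0.34. Each small RNA was paired with its SNHG host where it had one and otherwise with the containing gene highest in Scr, so that SNORA73B was paired with SNHG3 and not with RCC1, which differed from Scr by -1.09 in CD24 KO and from CD24 KO by 1.33 in RCC2 KO. No containing gene in these pairs was 2-fold changed in any of the 3 comparisons, whereas 5, 6 and 5 small RNAs were, against 5.38%, 0.863% and 7.96% of all genes. Of 21 small RNAs listed at 0 in a column and lying in a gene of the table, 20 had a containing gene that was above 0 in every column and 19 one of at least 1 FPKM in every column. EIF4A1, for example, was at 282, 125 and 301 FPKM, while SNORA67 was listed in Scr alone. EIF3A was at 217, 148 and 190 FPKM, while SNORA19 was listed in CD24 KO alone. The gene of SNORA22, the transcribed pseudogene CCT6P1, was lower, at 1.43, 1.25 and 2.22 FPKM.

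The proteins that bind, assemble and process small RNAs were described by lists, written from memory. The counts are read against all genes compared, of which 53% were lower in CD24 KO than in Scr, 2.88% at least 2-fold, and 49.4% were higher in RCC2 KO than in Scr. All 8 core proteins of box C/D and H/ACA particles were lower in CD24 KO than in Scr, with a median log2 difference of -0.72. NOP56, a core protein of box C/D particles that is also a snoRNA host, was at 103 FPKM in Scr, at 32.9 in CD24 KO and at 120 in RCC2 KO. DKC1 (dyskerin), the pseudouridine synthase of H/ACA particles, was at 108, 49.4 and 121 FPKM in the same order. These were the 2 of the 8 that were at least 2-fold lower in CD24 KO. In RCC2 KO 7 of 8 were higher than in Scr, with a median of 0.15 and none 2-fold changed. RCC2 KO was above CD24 KO for 8 of 8.

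Of 14 assembly and trafficking factors, 12 were lower in CD24 KO than in Scr (median -0.47), 2 of them at least 2-fold, TCOF1 (-1.04), the treacle nucleolar protein, and RUVBL1 (-1.02), an ATPase of the R2TP assembly complex. In RCC2 KO 9 of 14 were higher than in Scr, with a median of 0.05. For 3′ end processing, which includes the RNA exosome, 16 of 20 were lower in CD24 KO (median -0.44) and 17 of 20 higher in RCC2 KO (median 0.09), none of them 2-fold. The lowest against Scr were EXOSC2 (-0.92) in CD24 KO and XRN2 (-0.22) in RCC2 KO.

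Of 23 RNA polymerase III genes, 18 were lower in CD24 KO than in Scr (median -0.31). POLR3G (-1.10) and POLR3K (-1.06), both polymerase subunits, were at least 2-fold lower, while POLR3GL, the alternative to POLR3G in the enzyme, was the highest at 0.86. In RCC2 KO 20 of 23 were higher, with a median of 0.08, the highest being GTF3C6 (0.46). The snRNA transcription list, with the SNAPc and Integrator subunits, was nearer to Scr, with 13 of 20 lower in CD24 KO (median -0.15) and 9 of 20 lower in RCC2 KO (median 0.03). Among 15 proteins of vault, Y RNA, 7SK and signal recognition particles, 10 were lower in CD24 KO (median -0.09) and 8 in RCC2 KO (median -0.01). The highest of them in CD24 KO was MVP, the major vault protein, at 0.96 above Scr and not 2-fold changed.

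Hosts of snoRNAs other than SNHG genes and GAS5, nearly all protein-coding but with the pseudogene CCT6P1 among them, could be compared for 68 genes. In CD24 KO 51 of the 68 were lower than in Scr (median -0.33), against 53% of all genes. At least 2-fold lower were 9 of 68, against 2.88% of all genes, and RPL12 (1.29) was at least 2-fold higher, against 2.5%. HSPA8, the constitutive HSC70 chaperone, was the lowest, at 1764 FPKM in Scr, at 278 in CD24 KO and at 1864 in RCC2 KO. NCL (nucleolin) differed by -1.25, EIF4A1 by -1.17 and RCC1 by -1.09 on the log2 scale. In RCC2 KO 45 of 68 were higher than in Scr, against 49.4% of all genes, with a median of 0.07 and none 2-fold changed. The SNHG genes and GAS5 had a higher median in both columns, -0.04 in CD24 KO and 0.30 in RCC2 KO, and the difference between the groups of hosts was not tested.

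**Figure D5:**
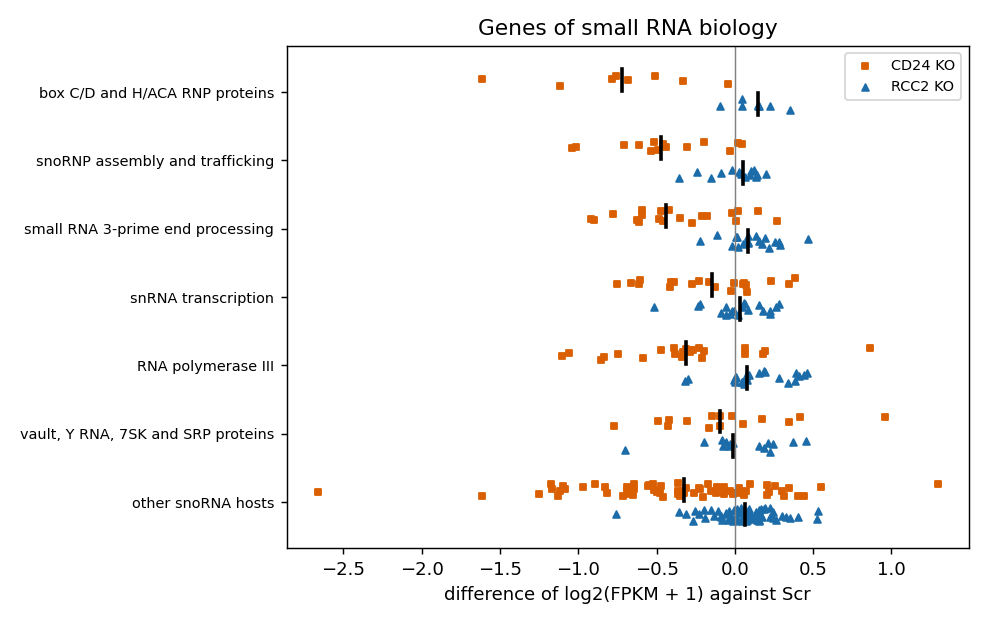
Differences of log2(FPKM + 1) against Scr for the genes of each list, squares for CD24 KO and triangles for RCC2 KO, with black bars for the medians. The CD24 KO medians lie left of 0 in all 7 lists, from -0.72 to -0.09, and the RCC2 KO medians lie between -0.01 and 0.15.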

How the data were processed

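The authors deposited 1 table of FPKM for 27381 genes with 1 column per condition and no value per library. Whether the RCC2 KO column holds 1 library or both is not known. The submitters' processing notes name HISAT, StringTie, Cufflinks and GATK, and their versions, the genome build and the annotation are not given in the sources used here. Of 24864 symbols, 15.8% overlapped their GRCh38 position, so coordinates were read as hg19, with starts counted from 1. The table holds no counts, so depth and its precision are unknown.

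Genes with at least 1 FPKM in a column (12822) were compared as differences of log2(FPKM + 1), with at least 2-fold as the call. Genes listed at 0 in a compared column were counted apart and given no fold. The limma fits that had been planned for values per library could not be run on 1 value per condition. The members and lists were chosen with earlier results of these data known, and the protein lists were written from memory. Named were all host genes with at least 1 FPKM, small RNAs above 0 in all 3 columns, the 4 highest small RNAs in each pattern of listing, those in host loci, and in each protein list the extreme genes and those past 2-fold; some of the latter are given as counts only. Members named beyond this rule were chosen after their values were seen. Lengths, sequences and containing genes came from GENCODE 29, matched by symbol, or for lengths from the table's own locus where it was not shared and at most 300 bases long. Small RNAs in host loci were counted by the locus that the table gives to both. Copies were aligned globally. Some items are not reported here. Calculations were tested on simulated data. Alternatives were other pseudocounts, filters, fold minimums, quantile normalization, median centring and keeping listed zeros. The software was pandas 2.3.3 and NumPy 2.4.6 under Python 3.11.15, with SciPy 1.17.1 for rank correlations and matplotlib 3.10.9 for plots.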

Additional observations from a re-analysis of the deposited data

How the results depend on the processing

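With 1 value per gene and condition, leaving out a replicate could not be done, and depth sets no known limit. No paired analysis was possible because the deposited columns hold no separate replicates. The share of small RNAs listed at 0 in a column, 73.2%, was 79.3% at a minimum of 10 FPKM and 74.4% with none, and that of host genes, 4.76%, was 7.14% and 9.09%, which are 1 or 2 genes. Over all genes the share of 0.663% was 0.417% at a minimum of 10 FPKM and 13.9% with none. For small RNAs in CD24 KO against Scr, the median of -0.83 was -0.45 with a pseudocount of 5, -0.96 with a minimum of 1 FPKM in all 3 columns, -0.64 after quantile normalization and 0 with listed zeros kept, and the 6 RNAs past 2-fold became 25 with listed zeros kept and 12 at a fold minimum of 1.5, which was chosen after seeing the data. In RCC2 KO against Scr, their median of -0.65 was -0.33 with a pseudocount of 5, -0.27 with a minimum of 1 FPKM in all 3 columns and 0 with listed zeros kept, and the 6 RNAs became 3 with a minimum of 1 FPKM in all 3 columns and 26 with listed zeros kept. In RCC2 KO against CD24 KO, their median of -0.40 reversed to 0.31 with a minimum of 1 FPKM in all 3 columns, which leaves fewer RNAs, and was -0.19 with a pseudocount of 5 and -0.64 with listed zeros kept, while the 7 RNAs became 3 with either of the first 2 settings and 28 with listed zeros kept. For host genes in CD24 KO against Scr, the count of 0 became 1 after quantile normalization and 4 at 1.5-fold. In RCC2 KO against Scr, their median of 0.30 was 0.18 with a pseudocount of 5, and the count of 2 became 0 with that pseudocount and 1 after quantile normalization. In RCC2 KO against CD24 KO, their median of 0.52 was 0.25 with a pseudocount of 5, and the count of 1 became 0 with it, 3 with a pseudocount of 0.1, 2 with listed zeros kept and 9 at 1.5-fold. Apart from the built-in effect of pseudocount, filter, fold minimum and zeros, the cause of these shifts was not tested. The other medians stayed within 0.1 on the log2 scale and the other counts within 1.5 times.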
